A study of Homo sapiens with 4 samples.

Results

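Genes of cell-cell adhesion were examined in MHCC97H cells, an established human hepatocellular carcinoma (HCC) line, after knockdown of UBXN1. The group held 10 of the 61541 genes counted, of which 6 encode cadherins (CDH6, CDH1, CDH2, CDH3, CDH17 and CDH24), 1 encodes a desmosomal cadherin (DSG2) and 3 encode catenins (CTNNA1, CTNND1 and JUP). CDH6 was chosen by its measured fall between these libraries, so its change is given as a description with no test. The other 9 were taken as its relatives and as genes of the junctions that cadherins form. RNA of 2 libraries of cells with a control short hairpin RNA (shCon) and 2 libraries of cells with a hairpin against UBXN1 (shUBXN1) was sequenced. Both groups came from the same line and carried a hairpin, and the methods describe lentiviral pLKO.1 vectors. Which UBXN1 hairpin was used, and whether a group was 1 clone, are not given in the sources used here. Nothing states that the 2 libraries of a group came from separate cultures, so the p-values measure only the spread between these libraries, which may be technical.

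Cadherins are transmembrane proteins that bind cadherins on the neighbouring cell through calcium-dependent extracellular repeats. In the adherens junction the tail of a classical cadherin binds beta-catenin or plakoglobin near its end and p120-catenin close to the membrane, and alpha-catenin links this complex to actin. In the desmosome, desmogleins and desmocollins bind plakoglobin and plakophilins, and desmoplakin anchors them to keratin filaments. Hepatocytes are unusual among epithelial cells in carrying both E-cadherin and N-cadherin, and CDH17, a cadherin of intestinal epithelium with a short tail that lacks the catenin-binding region, is often found in liver tumours.

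The libraries held 23373700 to 27380508 counts, and the knockdown was seen in both shUBXN1 libraries. UBXN1 was at 67.1 and 77.3 CPM (read counts scaled to library size) in shCon and at 16.8 and 18.5 CPM in shUBXN1, which left 24.5% of the control level (log2 fold change -2.03, standard error 0.0963, adjusted p = 9.98e-10 in edgeR's quasi-likelihood fit after Benjamini-Hochberg correction over all genes, the test behind each adjusted p given here). Each of 10 hepatocyte and HCC marker genes had counts in every library, as had the epithelial keratins KRT8 and KRT18. Some of these markers were low, with 11 to 22 counts of APOA1 and, in shUBXN1, 5 and 3 of TTR and 20 and 9 of FGB. EPCAM had 10 to 19 counts. The summed level of KRT8, KRT18, KRT19 and EPCAM was 5763 and 5793 TPM in shCon and 4771 and 5197 TPM in shUBXN1, and KRT19 among them fell (log2 fold change -1.24, edgeR adjusted p = 1.51e-08). The summed level of the 10 hepatocyte and HCC genes was 114 and 112 TPM in shCon and 67.6 and 64.7 TPM in shUBXN1. TPM is counts divided by gene length, then scaled to 1 total for every library. At an adjusted p under 0.05, 7 of the 10 fell and 1 rose, beside 28.2% and 28.0% of all genes tested. The summed level of 6 endothelial markers was 15.3 to 15.4 TPM in shCon and 32.1 to 32.4 TPM in shUBXN1, that of 8 fibroblast and stellate markers 24.8 to 25.2 and 12.8 to 13.9 TPM, and that of 6 immune markers 99.8 to 103 and 84.4 to 94.4 TPM. The endothelial sum was mostly PECAM1 (9.97 and 9.61 TPM in shCon, 13.7 and 12.4 in shUBXN1) and KDR. KDR was at 5.09 and 5.35 TPM in shCon and at 17.9 and 19.5 TPM in shUBXN1, while CDH5 went from 3 and 6 counts to 0. The immune sum was mostly CD68 (98.4 and 102 TPM in shCon) and the fibroblast sum mostly LUM (24.1 and 23.9 TPM in shCon). COL1A1 of the fibroblast list rose from 10 and 4 counts to 58 and 59. PDGFRA, CD3E and MS4A1 were at 0 in every library. These marker levels moved with the groups and their part in the results was not tested. The libraries came from 1 cell line, and the labels name no other cell type. In bulk RNA a change in every cell and a change in the share of cells that express a gene cannot be told apart. Mitochondrial genes took 5.28% and 5.59% of counts in shCon and 7.43% and 8.27% in shUBXN1.

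A filter on low counts kept 9 of the 10 genes and left out CDH3. At an adjusted p under 0.05 over the 16863 genes tested, 3 were higher in shUBXN1 (CDH1, CDH2 and DSG2), beside 28.0% of all genes tested. Without CDH6, 4 were lower (CDH17, CTNNA1, CTNND1 and JUP), beside 28.2% of all genes. Taken in either direction, 7 of the 8 tested genes other than CDH6 passed, beside 56.2% of all genes, so most genes tested passed as well. The CPM of the groups did not overlap for 7 of these 8 genes, beside 78.0% of all genes. At a fold of 2 with an unadjusted p under 0.05, CDH1 was higher, beside 11.8% of all genes, and CDH17 was lower, beside 6.09%, with CDH6 left out of the count. The median log2 fold change of these 8 genes was -0.24, and that of all genes tested was 0.016. Directions were mixed within the family, and sizes ran from a rise of 1.18 to a fall of 1.75 on the log2 scale apart from CDH6.

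CDH6 encodes K-cadherin, a type II classical cadherin of the developing kidney, and it lies on chromosome 5 of GRCh38 from 31193686 to 31329146 on the plus strand. It had 478 and 359 counts in the shCon libraries and 19 and 10 counts in the shUBXN1 libraries. Scaled to library size these were 17.9 and 15.3 CPM in shCon and 0.768 and 0.427 CPM in shUBXN1. Both knockdown libraries lay far below both control libraries, and 3.65% of the control level was left (log2 fold change -4.78). This fall chose the gene, so no test is given. The few reads left in shUBXN1 set the precision of the value, which was -5.27 without the first and -4.44 without the second shUBXN1 library. Pseudogene DUX4L51 shares 8.91% of the exon bases of CDH6 on the same strand, and when its reads were added the log2 fold change was -4.79.

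CDH1 encodes E-cadherin, the main cadherin of epithelial adherens junctions (chromosome 16, 68737292 to 68835537, plus strand). It stood at 14.3 and 14.6 CPM in shCon and at 32.2 and 33.1 CPM in shUBXN1. The libraries of a group lay close together, the groups did not overlap, and the level rose 2.26-fold (log2 fold change 1.18, standard error 0.0977, edgeR adjusted p = 1.83e-07). With each library left out in turn the log2 fold change was 1.14 to 1.19. An antisense gene covers 5.71% of its exon bases, and it had 0 counts in all 4 libraries.

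CDH2 encodes N-cadherin, the type I cadherin of neural and mesenchymal cells that hepatocytes also carry (chromosome 18, 27932879 to 28177946, minus strand). Its level was 110 and 103 CPM in shCon and 131 and 141 CPM in shUBXN1. N-cadherin mRNA was thus higher in both knockdown libraries, by a factor of 1.28 (log2 fold change 0.36, standard error 0.0755, edgeR adjusted p = 0.00098). Without the second shCon library the log2 fold change was 0.30 and the call was lost (adjusted p = 0.0858), and with the others left out it was 0.29 to 0.41. E-cadherin and N-cadherin mRNA thus moved the same way, the latter less firmly.

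CDH3, which encodes P-cadherin and lies next to CDH1 (chromosome 16, 68636189 to 68727468), had 1 count in one shCon library and 0 counts in the other 3 libraries. No change could be read at this depth, where 3 counts correspond to 0.113 to 0.128 CPM. CDH24, a broadly expressed type II cadherin (chromosome 14, 23047062 to 23057538), was at 11.6 and 9.11 CPM in shCon and at 9.13 and 8.50 CPM in shUBXN1. The groups overlapped, and the log2 fold change of -0.23 (standard error 0.156) did not pass the test (edgeR adjusted p = 0.224). CDH24 transcripts are rich in G and C (64.2%), and when the GC trend of every library was taken out, the log2 fold change was -0.62 and passed (adjusted p = 0.00339). Without the first shCon library it was -0.046 and without the second -0.41, neither of which passed.

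CDH17 encodes LI-cadherin and lies on chromosome 8 from 94127162 to 94217303 on the minus strand. Its mRNA was at 302 and 286 CPM in shCon and at 85.7 and 88.9 CPM in shUBXN1. Both knockdown libraries were far below the control libraries, and 29.7% of the control level was left (log2 fold change -1.75, standard error 0.0759, edgeR adjusted p = 4.3e-10). The value lay between -1.81 and -1.67 under every processing alternative that was run. In counts this was the largest loss among the 6 cadherins of the group, from 8049 and 6718 to 2122 and 2082, since CDH6 was a minor transcript in the control cells.

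Levels of different genes were compared per length, as TPM. In shCon, CDH17 (215 to 234 TPM) and CTNNA1 (213 to 219 TPM) overlapped at the top, followed by CTNND1, DSG2, JUP and CDH2 (50.6 to 55.5 TPM). CDH24 (6.26 to 8.18 TPM), CDH1 (5.98 to 6.06 TPM) and CDH6 (3.54 to 4.27 TPM) formed a low tier, in which neighbours did not overlap although CDH24 and CDH1 nearly met. E-cadherin mRNA was therefore scarce in these cells and N-cadherin mRNA was 8.46 to 9.16 times as abundant. In shUBXN1, the ratio of CDH2 to CDH1 was 4.88 to 5.11, and CDH2 (70.8 to 70.9 TPM) stood level with CDH17 (68.2 to 70.8 TPM). CDH1, at 13.8 to 14.5 TPM, now exceeded CDH24.

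The sum over the 6 cadherin genes was 308 and 282 TPM in shCon and 163 and 159 TPM in shUBXN1. CDH17 supplied 76.0% and 76.4% of this sum in the control libraries and 43.4% and 42.9% in the knockdown libraries. The share of CDH2 was 18.0% in both shCon libraries and 43.4% and 44.6% in shUBXN1, and that of CDH1 was 1.97% and 2.12% against 8.90% and 8.71%. CDH6 made up 1.39% and 1.26% of the control sum, so the fall in this sum was carried by CDH17. The sum leaves out DSG2, which rose, and FAT1, which fell, and so is not total cadherin mRNA. The ratio of CDH17 to CDH2 was 4.22 and 4.26 in shCon and 0.999 and 0.963 in shUBXN1. With 2 libraries against 2 an exact permutation test of such sums and ratios cannot reach 0.05, and none was run.

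DSG2 encodes desmoglein 2, the desmosomal cadherin of simple epithelia such as the liver (chromosome 18, 31498177 to 31549008, plus strand). It was at 285 and 264 CPM in shCon and at 460 and 466 CPM in shUBXN1. The rise was 1.69-fold in groups that did not overlap (log2 fold change 0.76, standard error 0.0768, edgeR adjusted p = 1.36e-06). JUP encodes plakoglobin, which serves both the desmosome and the adherens junction (chromosome 17, 41754604 to 41786931, minus strand). Its level was 130.3 CPM in both shCon libraries and 78.6 and 80.8 CPM in shUBXN1. Plakoglobin mRNA thus fell to 61.1% of control (log2 fold change -0.71, standard error 0.0715, edgeR adjusted p = 1.25e-06). The transcript of JUP is 61.5% G and C, and with the GC trend taken out its log2 fold change was -1.03. The ratio of DSG2 to JUP in TPM was 1.23 and 1.14 in shCon and 3.29 and 3.24 in shUBXN1.

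The other desmosome genes moved in both directions. DSC2, which encodes desmocollin 2, was at 24.5 and 22.7 CPM in shCon and at 40.2 and 42.6 CPM in shUBXN1 (log2 fold change 0.81, edgeR adjusted p = 3.29e-06). DSG3, a desmoglein of stratified epithelium, was near the limit with 8 to 10.2 counts in shCon and 39.2 to 42.4 in shUBXN1 (log2 fold change 2.22, standard error 0.463). DSG3 passed the filter on low counts through the shUBXN1 libraries, where it was high. The remaining 4 desmosomal cadherins did not pass it, with 21 and 7 counts of DSG1 in shCon and 6 and 3.08 in shUBXN1, 17 and 3 counts of DSG4 in shCon and 3 and 1 in shUBXN1, at most 5.73 counts of DSC3 and none of DSC1.
The plaque genes PKP2 and PKP3 encode plakophilins, and DSP encodes desmoplakin. PKP2 went from 26.1 and 25.6 CPM to 10.5 and 10.1 CPM (log2 fold change -1.33, adjusted p = 1.72e-07). PKP3 went from 76.1 and 79.0 CPM to 43.8 and 49.0 CPM (log2 fold change -0.74, adjusted p = 2.67e-06). DSP went from 402 and 381 CPM to 226 and 219 CPM (log2 fold change -0.82, adjusted p = 5.07e-07, all from edgeR's quasi-likelihood test). PKP4, a more distant plakophilin, had a log2 fold change of -0.50 (edgeR adjusted p = 4.4e-05). EVPL, which encodes envoplakin, a plakin of desmosomes and the cornified envelope in stratified epithelium, rose from 18.6 and 17.9 CPM to 46.8 and 44.9 CPM (log2 fold change 1.33, edgeR adjusted p = 2.38e-08), and its partner PPL did not pass (log2 fold change 0.16, edgeR adjusted p = 0.465). PKP4 and PPL were chosen for mention after their values were seen. At an adjusted p under 0.05 the calls of DSG2, DSC2, JUP, PKP2, PKP3 and DSP held with every other normalization, filter and test and without any 1 library, but of these 6 only PKP2 changed by a fold of 2 or more.

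**Figure D1:**
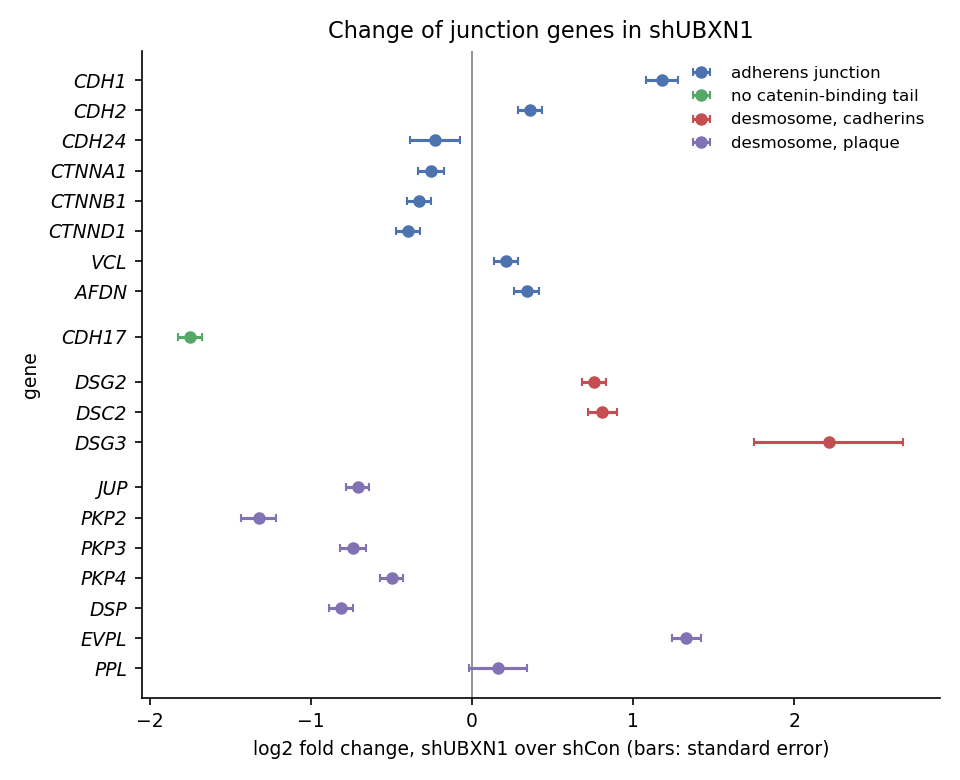
Log2 fold change of shUBXN1 over shCon with its standard error for genes of the adherens junction (blue), CDH17 (green), desmosomal cadherins (red) and desmosomal plaque genes (purple), and a line at 0. DSG2 and DSC2 lie to the right of 0, at 0.76 and 0.81, as does EVPL at 1.33, whereas JUP, PKP2, PKP3, PKP4 and DSP lie to the left, from -0.50 to -1.33. DSG3, at 2.22, has the widest bar among the desmosomal genes. CDH6 is not drawn.

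Promoters of CDH2, CTNNA1, JUP and DSG2, taken from RefSeq (GRCh38.p14, 250 bases before to 50 after the start), were searched for the E-box CACCTG, a motif bound by the SNAIL and ZEB repressors of cadherin genes (CAGGTG is the same motif on the other strand). CDH2, CTNNA1 and JUP had no match, and the 2 matches of DSG2 are shown. A match was found in 20.6% of all 35116 promoters in that table, and it is a description of these letters and not of binding. The matches lie on the plus strand, are written 5′ to 3′, and have the motif in capitals.
DSG2, chr18:31497935-31497960: gtcacggtccCAGGTGcgagtgcgag
DSG2, chr18:31498051-31498076: gcggcggccaCACCTGgagccgcgcc

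CTNNA1 encodes alpha-catenin, the actin link of the adherens junction (chromosome 5, 138610967 to 138935034, plus strand). It was at 404 and 405 CPM in shCon and at 319 and 360 CPM in shUBXN1. The groups did not overlap and the fall was small (log2 fold change -0.25, standard error 0.0804, edgeR adjusted p = 0.0146). It no longer passed without the first (adjusted p = 0.0772) or the second shCon library (adjusted p = 0.176), with log2 fold changes of -0.26 and -0.27.

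CTNND1 encodes p120-catenin, which holds cadherins at the membrane (chromosome 11, 57753243 to 57819546, plus strand). Its level was 511 and 499 CPM in shCon and 375 and 392 CPM in shUBXN1. It fell to 75.9% of control (log2 fold change -0.40, standard error 0.0758, edgeR adjusted p = 0.000467). A pair of same-strand genes shares 39.1% of its exon bases, and one of them, ENSG00000288534, carried 349 to 465 counts per library beside 9181 to 13632 for CTNND1 itself. With their reads added to CTNND1 the log2 fold change was -0.38 (edgeR adjusted p = 0.000656), a setting chosen after the data were seen.

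Beta-catenin (CTNNB1), the alternative to plakoglobin on the cadherin tail, was at 332 and 323 CPM in shCon and at 251 and 270 CPM in shUBXN1 (log2 fold change -0.33, standard error 0.0753, edgeR adjusted p = 0.00181). Plakoglobin made up 27.8% and 28.3% of the summed TPM of JUP and CTNNB1 in shCon and 23.5% and 22.6% in shUBXN1. CTNNA2, the neural alpha-catenin, did not pass the filter on low counts. Across the 13 catenin and plakophilin genes, 9 were tested, 7 fell and 1 rose, beside 28.2% and 28.0% of all genes, with a median log2 fold change of -0.40 beside 0.016 over all genes. These falls include CTNNA1, CTNND1 and JUP, already counted above. Without these members 6 were tested, 4 fell and 1 rose, beside the same shares, with a median of -0.42. The one that rose was ARVCF, a relative of p120-catenin, from 0.863 and 0.766 CPM to 7.52 and 5.08 CPM (log2 fold change 2.94, standard error 0.302, edgeR adjusted p = 1.5e-06). It remained a minor transcript beside CTNND1, at 0.373 to 0.433 TPM in shCon and 2.52 to 4.02 TPM in shUBXN1 where CTNND1 was at 118 to 122 TPM.

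The wider cadherin and junction lists held 162 other genes, of which 99 were tested, 31 were higher and 28 were lower, beside 28.0% and 28.2% of all genes, with a median log2 fold change of 0.065. These counts are near the shares over all genes. With the GC trend taken out, 22 were higher and 31 lower. All genes tested shifted the same way there, with 3931 higher and 5392 lower in place of 4727 and 4751. Among the other type II cadherins, 2 of 11 were tested and neither passed: CDH8, with 49.4 and 53.7 counts in shCon and 43.4 and 27.7 in shUBXN1, and CDH19, with 22 to 23 and 12 to 15 counts. Endothelial CDH5 had 3 and 6 counts in shCon and 0 in both shUBXN1 libraries, and mesenchymal CDH11 had 1 and 1 against 0 and 0. The only other type I cadherin tested, CDH4, had 2 and 3 counts in shCon and 12 and 10 in shUBXN1. None of these 5 exceeded 2.30 CPM in any library. These 5 genes were chosen for mention after their values were seen.

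Of 9 other cadherin-related genes outside the classical types, 4 were tested and 2 were lower, beside 28.2% of all genes. They were CDHR2, a cadherin of the brush border, and CDH23 (log2 fold changes -0.87 and -0.41). The call of CDHR2 held in all 14 alternative settings and that of CDH23 in 8 of them. Among the larger relatives, FAT1, a giant atypical cadherin, was at 1299 and 1139 CPM in shCon and 553 and 511 CPM in shUBXN1 (log2 fold change -1.20, standard error 0.0904, edgeR adjusted p = 7.49e-08). CLSTN3, which encodes calsyntenin 3, rose from 18.1 and 19.6 CPM to 48.8 and 40.5 CPM (log2 fold change 1.25, edgeR adjusted p = 2.15e-07). Of the 9 large atypical cadherins tested, 5 rose and 3 fell, beside 28.0% and 28.2% of all genes. Among the rises, DCHS2 had 4 and 2 counts in shCon and 14 and 35 in shUBXN1, through which it passed the filter. The calls of CELSR3 and CLSTN1, both rises, held in 12 of 14 settings. That of CELSR2, also a rise, held in 8 of 14, and that of CLSTN2, a fall, in 7 of 13. Of 12 non-clustered protocadherins, 4 were tested, 2 rose and 2 fell, beside 28.0% and 28.2% of all genes. Among these rises, PCDH12 had 1 and 1 counts in shCon and 28 and 19 in shUBXN1, through which it passed the filter. PCDH9 was at -1.19 (adjusted p = 1.37e-05, edgeR's quasi-likelihood test). Of 53 clustered protocadherins, 33 were tested, 4 rose and 8 fell, beside 28.0% and 28.2% of all genes. All these rises but PCDHA5 passed the filter through the shUBXN1 libraries, where they were high. PCDHGA11 had 7.46 and 7.72 counts in shCon and 23 and 21.2 in shUBXN1. PCDHGC4 had 5.39 and 2.03 against 10.6 and 13.3, and PCDHGB6 9.22 and 23.8 against 53.3 and 42.2. The calls of PCDHGA11 and PCDHGC4 held in 7 and 5 of 13 settings. Their values are uncertain since these genes share exons or are close copies of each other. PCDHB8 was at 3.75 and 4.68 CPM in shCon and 1.05 and 1.07 CPM in shUBXN1 (log2 fold change -1.99), PCDHB15, PCDHB16 and PCDHB5 had log2 fold changes of -1.67, -1.30 and -1.09, and PCDHGB6 had 1.55. The call of PCDHB16 was lost in 5 of 14 settings, and those of PCDHB15 and PCDHGB6 without the first shCon library.

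Transcripts for proteins that link junctions to actin and keratin did not move together. Of 18 scaffold genes, 17 were tested, 6 rose and 5 fell, beside 28.0% and 28.2% of all genes, and 6 did not pass. AFDN, which encodes the nectin linker afadin, rose slightly (log2 fold change 0.34, adjusted p = 0.00179), but not past the threshold without the second shCon library. VCL, which encodes vinculin, had a log2 fold change of 0.21 (adjusted p = 0.0271) that was lost without either shCon library or after removal of the GC trend.

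Among 11 genes whose products process cadherins by cutting them or by marking them for removal, all were tested. Of these, 6 rose and 2 fell, beside 28.0% and 28.2% of all genes, and 3 did not pass. ADAM15 and APH1A were among the rises, and neither passed with the GC trend taken out, where ADAM15 was at -0.15. FURIN, a proprotein convertase that removes the cadherin prodomain, went from 73.4 and 79.1 CPM to 29.8 and 29.9 CPM (log2 fold change -1.35, standard error 0.0801, edgeR adjusted p = 7.23e-09). Among 18 transcription factors, cofactors and splicing regulators known to act on cadherin genes, 10 were tested. Of these, 4 rose (SNAI2, ZEB2, ELF3 and CTBP1) and 2 fell (TCF3 and CTBP2), beside 28.0% and 28.2% of all genes. The other 4 did not pass. TCF3, which encodes the E-box factor E47 among its products, went from 116 and 114 CPM to 54.9 and 57.7 CPM (log2 fold change -1.03, adjusted p = 4.39e-08). The log2 fold changes of ELF3 and CTBP1 were both 0.22, and neither passed without either shCon library or with the GC trend taken out, where that of CTBP1 turned to -0.074. The E-box repressor genes SNAI1 and ZEB1 had log2 fold changes of -0.22 and -0.17 that did not pass, whereas SNAI2 and ZEB2 had 0.85 and 0.81. Apart from TCF3, the regulators were chosen for mention after their values were seen.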

How the data were processed

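The authors sequenced paired ends and aligned the reads with Hisat2, to GRCh38 by the paper's methods and to GRCh37 by the submitters' processing notes, which also name HISAT2 2.0.4 and StringTie 1.3.0. The deposited values are expected counts per gene, not normalized, with a gene length. The counting tool, annotation release and strand setting are not given in the sources used here, so overlapping genes are uncertain. Of the values above 0, 62.4% to 64.6% per library were whole. Symbols matched 61369 of 61541 gene IDs, and positions are those of GENCODE v44 on GRCh38.

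Counts were rounded, filtered with filterByExpr, scaled by TMM (factors 0.967 to 1.06) and fitted with edgeR 4.0.16 (functions glmQLFit and glmQLFTest, R 4.3.3), with no covariate, 2 libraries per group and Benjamini-Hochberg adjustment over all genes tested. CPM used the effective library sizes, and TPM used the file's gene lengths. Replicates differed by more than sampling noise (chi-square per degree of freedom 3.67 in shCon and 7.85 in shUBXN1), so none was a copy. DESeq2 1.42.0 and limma 3.58.1 served as alternatives. Members and lists were chosen with earlier results of these data known. All members, 8 fixed junction genes and list genes with an adjusted p under 0.05, a log2 fold change of at least 1 in size, a mean log2 CPM above 0 and groups without overlap were named, at most 5 per list. A gene that met this rule is not reported here.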

Additional observations from a re-analysis of the deposited data

How the results depend on the processing

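No direction of a tested member changed under 14 alternative settings or the 1 chosen after seeing the data. At a fold of 2 with an unadjusted p under 0.05, 1997 genes were higher and 1027 lower in place of 4727 and 4751 at an adjusted p under 0.05, and of the members other than CDH6, 1 was higher and 1 was lower in place of 3 and 4. On log2(TPM + 1), CDH6 was at -2.09, since a pseudocount of 1 compresses low levels. The CDH2 call was lost without the second shCon library and the CTNNA1 call without either, and CDH24 passed only after removal of the GC trend. The numbers R1 and R2 were shared by the groups, and same-numbered libraries deviated together with a correlation of 0.039. With 2 libraries per group this is a single comparison, so it cannot decide whether same-numbered libraries were prepared together. With the replicate block the members called, CDH6 left out, were 3 higher and 4 lower, as without it, and CDH2 was at 0.36. Calls at low counts, as for DSG3, are limited by depth.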
